A study of Mus musculus with 19 samples.

Results

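Nanog, Pou5f1 (which encodes OCT4) and Sox2 are the core transcription factors of pluripotency, and their transcript levels were followed in single mouse embryos deficient or not for Alyref or Gabpb1. The 3 genes were found by symbol among 53379 gene rows, each in 1 row, and all 3 were among the 18410 genes that passed the expression filter. The embryos were of strain B6D2F1, came from in vitro fertilisation, grew in KSOM medium and were taken at the morula or blastocyst stage 96 hours after insemination, each made into its own library of polyA RNA. Crosses of Alyref+/- parents contributed 2 Alyref KO and 3 non-KO morulae, with 3 non-KO blastocysts. Crosses of Gabpb1+/- parents contributed 3 morulae labelled Gabpb1 KO and 2 labelled non-KO, with 3 non-KO blastocysts, and wild-type (WT) parents contributed 3 blastocysts. Non-KO embryos are WT or heterozygous, since the submitters told only the KO embryos apart, from absent reads over the deleted stretch in the same libraries. No blastocyst was labelled KO, the cell type is the whole embryo, and the labels give no batch, so batch and cross cannot be told apart.

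OCT4 and SOX2 bind DNA side by side on a joint octamer and SOX motif, and NANOG joins them at many of the same enhancers, among them those of their own genes. In the mouse embryo Pou5f1 is transcribed in all cells of the morula and later fades from the trophectoderm, the outer layer that forms the placenta. Nanog is switched on before the blastocyst forms and settles in the epiblast, the founder of the fetus, while Sox2 marks inner cells early. ALYREF is an mRNA export adaptor, and GABPB1 belongs to the GABP transcription factor complex.

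The sequence upstream of each gene is shown because the 3 factors are known to regulate each other through such elements. The windows are on the plus strand of GRCm38.p6 and run from 250 to 21 bases before the RefSeq start, credited to RefSeq. Capitals mark matches to the octamer motif TTTGCAT or to the SOX motif ACAANG on either strand. The Nanog window is chr6:122707239-122707468, the Pou5f1 window chr17:35505782-35506011 and the Sox2 window chr3:34649745-34649974.
Nanog: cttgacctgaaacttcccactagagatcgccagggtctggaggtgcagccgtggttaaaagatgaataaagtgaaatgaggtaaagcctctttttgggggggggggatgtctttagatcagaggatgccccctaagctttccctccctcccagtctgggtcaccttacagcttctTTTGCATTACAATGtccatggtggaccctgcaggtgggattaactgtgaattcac
Pou5f1: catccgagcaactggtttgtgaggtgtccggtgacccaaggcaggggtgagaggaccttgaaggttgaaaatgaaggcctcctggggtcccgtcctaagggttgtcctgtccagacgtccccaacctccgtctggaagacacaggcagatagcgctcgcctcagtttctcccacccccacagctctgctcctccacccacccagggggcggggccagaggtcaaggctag
Sox2: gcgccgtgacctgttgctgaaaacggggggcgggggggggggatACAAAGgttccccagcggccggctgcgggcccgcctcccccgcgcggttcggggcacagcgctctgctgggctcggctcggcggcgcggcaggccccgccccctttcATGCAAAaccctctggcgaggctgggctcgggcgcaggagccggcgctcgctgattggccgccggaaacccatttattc

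The Nanog window held the joint motif, TTTGCATTACAATG, at 75 to 62 bases before the start. Written as TTTGCATNACAANG, which contains both shorter motifs and was spelled with the Nanog element known, it occurred in 3 of 32851 promoter windows, or 0.00913%. The Sox2 window held an octamer match on the minus strand at 99 to 93 bases and a separate SOX match at 206 to 201 bases before the start. No match to these letters was present in the Pou5f1 window. Singly, the octamer motif occurred in 3.88% and the SOX motif in 34.4% of the windows. A match describes the letters and not a bound site.

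In the annotation of GRCm38, Nanog (ENSMUSG00000012396.12) lies at chr6:122707489-122714633, Pou5f1 (ENSMUSG00000024406.16) at chr17:35506018-35510772 and Sox2 (ENSMUSG00000074637.7) at chr3:34650405-34652461, all on the plus strand. The RefSeq start used for the Sox2 window, at base 34649995, lies upstream of that gene start. Pou5f1 shares exons with an antisense gene, Gm19553 (chr17:35509077-35510551), which has 317 of its 494 exon bases within Pou5f1 exons. Sox2 lies inside the long non-coding gene Sox2ot on the same strand, without shared exon bases. Nanog has a processed copy, Nanog-ps1, to which 5 to 47 counts were assigned per embryo, against 947 to 7169 for Nanog itself.

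The libraries held 7.49 to 31.5 megacounts of genes (median 13.6), and ERCC spike-in RNA made up 0.501 to 1.95% of all counts. Levels are given as CPM, the counts per megacount of library after TMM scaling of the library sizes. The Alyref KO morulae held 53.1 ± 7.56 CPM of Alyref (SD, n = 2), against 221 ± 65.6 CPM (SD, n = 3) without KO. The morulae labelled Gabpb1 KO held 163 ± 91.3 CPM of Gabpb1 (SD, n = 3), against 88.5 ± 7.45 CPM (SD, n = 2) without KO. Labelled KO morula 1, at 78.1 CPM, lay below the non-KO morulae at 93.8 and 83.2 CPM. The difference was not called (edgeR's quasi-likelihood test, adjusted p = 0.243). Gabpb1 was thus not lower in the labelled group, but counts per gene do not show the deleted exons and cannot test the label. Summed over 14 trophectoderm markers, all with counts in each group, the level was 849 to 1740 CPM in Alyref KO morulae and 639 to 2720 CPM in non-KO morulae of that cross. It was 287 to 3800 CPM in morulae labelled Gabpb1 KO, 3680 to 5800 CPM in Gabpb1 cross non-KO morulae and 6130 to 9560 CPM over all 9 blastocysts. The keratins Krt8 and Krt18 held a large part of the sum, for example 960 and 1330 of 3680 CPM in Gabpb1 cross non-KO morula 2. Of 9 epiblast markers and 10 primitive endoderm markers, only Sox7 and Foxa2 of the latter were at 0 throughout a group, and only in morulae. Of 7 cumulus cell markers, 2 to 5 had any count in a group, with Fshr at 0 in every group and sums of 2.21 to 24.0 CPM.

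Nanog, the homeodomain factor of naive pluripotency, was highest in the Alyref cross morulae and low in blastocysts. The Alyref KO morulae stood at 511 and 478 CPM, and the non-KO ones of that cross at 375, 284 and 361 CPM. In the Gabpb1 cross it stood at 221, 153 and 205 CPM in morulae labelled KO and at 171 and 89.1 CPM in non-KO morulae. Every Alyref cross morula thus lay above every Gabpb1 cross morula. The share of all genes that separate these morulae in the same way was not computed, and batch and cross cannot be told apart. Between the non-KO morulae alone, 18.3% of tested genes were lower in the Gabpb1 cross without overlap. Blastocysts had 105, 69.5 and 89.9 CPM in the Alyref cross, 122, 165 and 160 CPM in the Gabpb1 cross and 119, 87.8 and 104 CPM with WT parents. The blastocyst values overlapped those of the Gabpb1 cross morulae and lay below all Alyref cross morulae, a separation whose share over all genes was not computed. The range over the 19 embryos was 7.35-fold.

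Ordered by group mean, Nanog ran from 495 ± 23.6 CPM for Alyref KO morulae (SD, n = 2) through 340 ± 49.1 CPM (SD, n = 3) for Alyref cross non-KO morulae to 193 ± 35.4 CPM (SD, n = 3) in morulae labelled Gabpb1 KO. These 3 groups did not overlap. Between the first 2 of them, 12.5% of tested genes failed to overlap in that direction. For the step to the labelled Gabpb1 KO morulae that share was not computed. Next came Gabpb1 cross blastocysts at 149 ± 23.6 CPM (SD, n = 3), Gabpb1 cross non-KO morulae at 130 ± 57.9 CPM (SD, n = 2), WT blastocysts at 104 ± 15.8 CPM (SD, n = 3) and Alyref cross blastocysts at 88.1 ± 17.7 CPM (SD, n = 3). From the labelled Gabpb1 KO group downward, each group overlapped the next in the order.

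Pou5f1, the POU factor needed for inner cell mass identity, varied far less, over a 2.67-fold range. It stood at 80.1 and 57.5 CPM in Alyref KO morulae and at 135, 95.1 and 113 CPM in non-KO morulae of the cross. In the Gabpb1 cross it stood at 119, 92.7 and 118 CPM in morulae labelled KO and at 86.6 and 69.8 CPM in non-KO morulae. The labelled KO embryos therefore lay below the non-KO embryos in the Alyref cross and above them in the Gabpb1 cross. Blastocysts had 55.6, 61.8 and 79.3 CPM in the Alyref cross, 104, 84.0 and 148 CPM in the Gabpb1 cross and 55.5, 63.0 and 83.6 CPM with WT parents. The lowest Gabpb1 cross blastocyst, at 84.0 CPM, was next to the highest other blastocyst, at 83.6 CPM, so no gap beyond the spread within groups set that cross apart.

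The Pou5f1 group means ran from 114 ± 19.9 CPM (SD, n = 3) for Alyref cross non-KO morulae, 112 ± 32.6 CPM (SD, n = 3) in Gabpb1 cross blastocysts and 110 ± 14.9 CPM (SD, n = 3) in morulae labelled Gabpb1 KO, which overlapped. They went on to 78.2 ± 11.9 CPM (SD, n = 2) for Gabpb1 cross non-KO morulae, 68.8 ± 16.0 CPM for Alyref KO morulae (SD, n = 2), 67.4 ± 14.5 CPM (SD, n = 3) in WT and 65.6 ± 12.3 CPM (SD, n = 3) in Alyref cross blastocysts. Only the step from the labelled Gabpb1 KO to the Gabpb1 cross non-KO morulae was free of overlap between neighbours. In that direction 15.8% of tested genes did not overlap either.

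Gm19553 counts were a nearly constant share of Pou5f1 counts. Its counts were 29.5 to 34.2% of those of Pou5f1, with a median of 32.3% over 19 embryos. The rows rose and fell together from embryo to embryo. The strand setting of the counting is not given in the sources used here, so reads of the shared exon bases cannot be told apart.

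**Figure D1:**
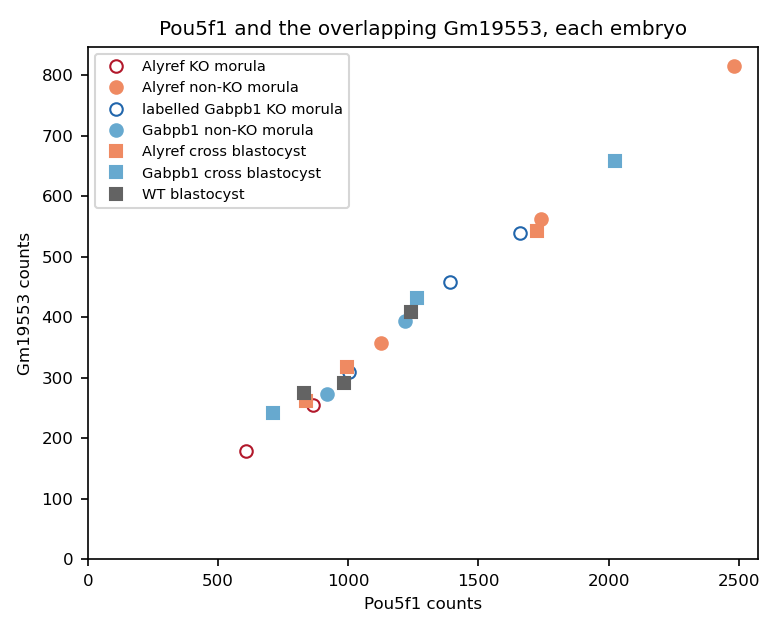
Counts of Gm19553 (vertical axis) against counts of Pou5f1 (horizontal axis), 1 point per embryo, with open circles for the labelled KO morulae, filled circles for other morulae and squares for blastocysts. The 19 points lie on nearly 1 line, with Gm19553 at 29.5 to 34.2% of Pou5f1 in every embryo.

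Sox2, the SRY-box partner of OCT4, was scarce and uneven. It stood at 2.38 and 1.27 CPM in Alyref KO morulae and at 2.07, 0 and 20.4 CPM in non-KO morulae of the cross. In the Gabpb1 cross it stood at 18.6, 0 and 1.91 CPM in morulae labelled KO and at 2.84 and 4.71 CPM in non-KO morulae. A single high embryo in each of the Alyref cross non-KO and labelled Gabpb1 KO groups thus set the group mean. Where 0 was counted, the limit that a count of 0 allows (3 counts) was 0.253 CPM in Alyref cross non-KO morula 2 and 0.278 CPM in labelled Gabpb1 KO morula 2, for counting error only. Blastocysts all held Sox2 counts, at 4.42, 6.52 and 6.83 CPM in the Alyref cross, 6.51, 1.07 and 4.74 CPM in the Gabpb1 cross and 8.97, 10.9 and 10.3 CPM with WT parents. The WT embryos were the highest blastocysts.

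By group mean Sox2 ran from 10 ± 0.98 CPM (SD, n = 3) in WT blastocysts through 7.49 ± 11.2 CPM (SD, n = 3) for Alyref cross non-KO morulae, 6.85 ± 10.3 CPM (SD, n = 3) in labelled Gabpb1 KO morulae and 5.92 ± 1.31 CPM (SD, n = 3) in Alyref cross blastocysts. Below them came 4.11 ± 2.78 CPM (SD, n = 3) in Gabpb1 cross blastocysts, 3.78 ± 1.32 CPM (SD, n = 2) for Gabpb1 cross non-KO morulae and 1.82 ± 0.784 CPM for Alyref KO morulae (SD, n = 2). Only the last 2 groups did not overlap as neighbours, and the share of all genes for that step was not computed. The spread between embryos of a group, as edgeR's biological coefficient of variation, was 1.14 for Sox2 and only 0.223 for Nanog and 0.224 for Pou5f1. For Sox2 this was 2.32 times the trend for genes of like abundance, at the 98.2 percentile of tested genes. Per kilobase of merged exons, the median over 19 embryos was 71.3 CPM for Nanog, 37.4 CPM for Pou5f1 and 2.29 CPM for Sox2.

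**Figure D2:**
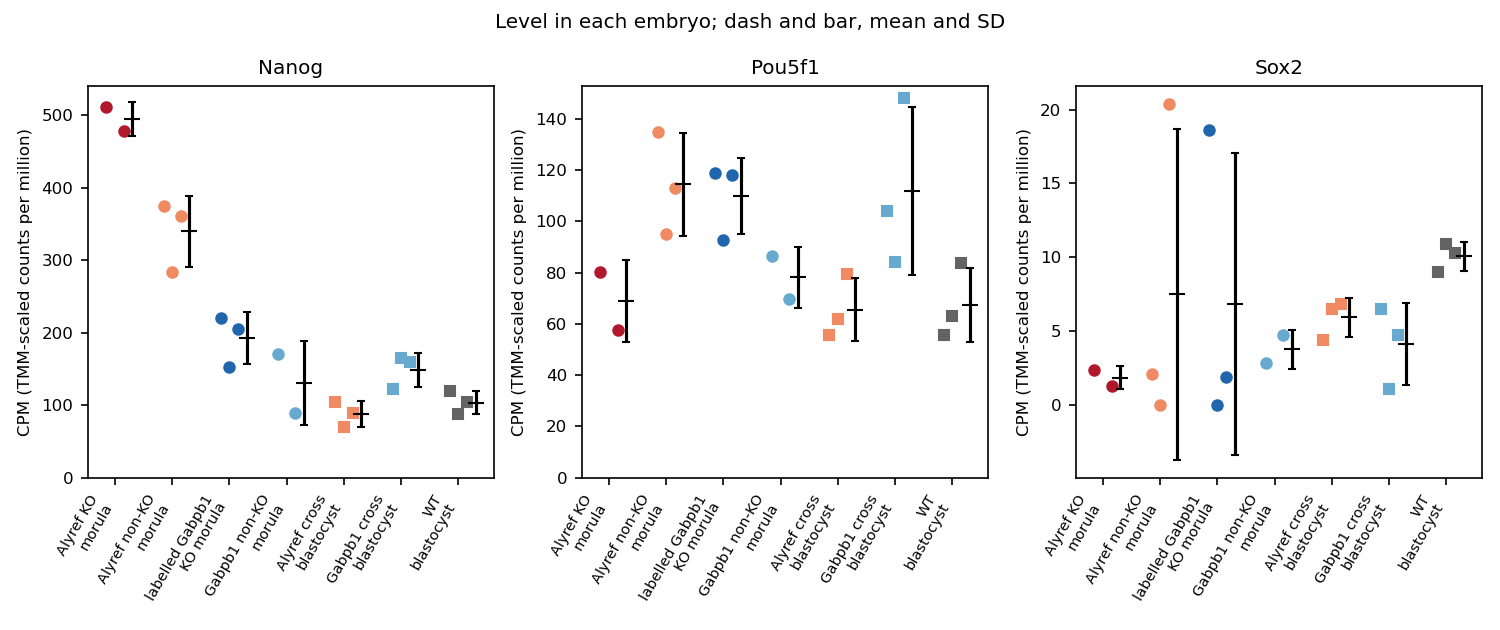
CPM of Nanog, Pou5f1 and Sox2 (vertical axes, each on its own scale) in the 7 groups, with 1 point per embryo, circles for morulae, squares for blastocysts, and the mean with SD beside each group. Nanog falls from 511 CPM in an Alyref KO morula to 69.5 CPM in an Alyref cross blastocyst, while Sox2 is split between 2 morulae at 18.6 and 20.4 CPM and the rest at 10.9 CPM or less.

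In the Alyref KO comparison Nanog was higher and Pou5f1 lower in every KO morula than in every non-KO morula, but neither difference passed the test across genes. On the log2 scale the fitted difference was 0.54 (SE 0.27, adjusted p = 0.437) for Nanog and -0.73 (SE 0.28, adjusted p = 0.285) for Pou5f1, from edgeR's quasi-likelihood test with Benjamini-Hochberg adjustment over all genes tested, as for all later adjusted p-values of single genes. Groups of this size failed to overlap in the higher direction for 12.5% and in the lower direction for 12.4% of the tested genes, and 0.228% of genes were called at an adjusted p under 0.05. Sox2 had a fitted value of -2.06 (SE 1.66, adjusted p = 0.681), with KO values inside the non-KO range. It rested on 1 embryo, since without Alyref cross non-KO morula 3 it was 0.72.

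In the Gabpb1 comparison all 3 genes had higher fitted levels in morulae labelled KO, and none passed the test. Nanog differed by 0.57 on the log2 scale (SE 0.27, adjusted p = 0.275), with 1 labelled KO embryo, at 153 CPM, inside the non-KO range. The Nanog value was 0.17 without Gabpb1 cross non-KO morula 2 and 1.11 without Gabpb1 cross non-KO morula 1. Pou5f1 differed by 0.49 (SE 0.27, adjusted p = 0.35) and did not overlap, as did 15.8% of tested genes in that direction, while 1.65% of genes were called in either direction. Sox2 differed by 0.86 (SE 1.54, adjusted p = 0.799) and became -1.92 without the labelled KO morula 1. The trophectoderm marker sum was 3800, 287 and 1430 CPM in the labelled KO morulae and 5800 and 3680 CPM in the non-KO morulae, which overlapped, and its part in these values was not tested.

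The KO effects of the crosses were compared directly. For Nanog they differed by 0.03 (SE 0.38, unadjusted p = 0.946, adjusted p = 1), a difference whose sign turned under 4 of 6 other fits. For Pou5f1 the Gabpb1 effect exceeded the Alyref effect by 1.22 (SE 0.39, unadjusted p = 0.00659, adjusted p = 0.141), where 0.907% of genes were called. With limma voom and quality weights that Pou5f1 difference was 1.44 and passed (adjusted p = 0.0497). For Sox2 the difference was 2.92 (SE 2.26, adjusted p = 0.539). It rested on single embryos, at 0.14 without Alyref cross non-KO morula 3 and also 0.14 without the labelled Gabpb1 KO morula 1, and was 1.33 with the replicate number as a block and -1.55 with voom.

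Between morula and blastocyst, Nanog and Pou5f1 were lower in blastocysts of the Alyref cross. Morulae and blastocysts were all taken 96 hours after insemination, so the morulae are not an earlier time point. Stage and slow or arrested development cannot be told apart. In all stage comparisons, fell and rose therefore mean lower and higher in blastocysts, not a change over time. Nanog fell by 1.95 on the log2 scale (SE 0.25, adjusted p = 0.00432), and all 3 blastocysts lay below all 3 non-KO morulae. Pou5f1 fell by 0.80 (SE 0.24, adjusted p = 0.0421), also without overlap. Groups failed to overlap in the lower direction for 19.2% of tested genes, 7.43% were called lower and 13.0% were called in all, so calls were common in this comparison. Sox2 was -0.35 (SE 1.33, adjusted p = 0.89), with blastocysts at 4.42 to 6.83 CPM inside the morula range. Its sign rested on Alyref cross non-KO morula 3, without which it was 2.44, and it was also positive with voom (1.66) and the replicate block (0.34). The trophectoderm sum rose beside these falls, from 639 to 2720 CPM in the morulae to 6130 to 9560 CPM in the blastocysts. In whole embryos, fewer cells that transcribe a gene and less RNA per cell cannot be told apart.

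The Nanog call held when any single embryo was left out (-2.09 to -1.80). The Pou5f1 call was lost without 5 of the 6 embryos in turn, without the filter on low values (-0.73, adjusted p = 0.116), with only the compared groups in the fit (-0.76, adjusted p = 0.0883) and with spike-in scaling (-1.13, adjusted p = 0.364).

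Between stages of the Gabpb1 cross no member passed the test. Nanog differed by 0.19 (SE 0.27, adjusted p = 0.948), Pou5f1 by 0.52 (SE 0.27, adjusted p = 0.78) and Sox2 by 0.13 (SE 1.52, adjusted p = 1), with overlap for all 3. There edgeR called 0% of genes, with 1237 genes at an unadjusted p under 0.05 and 57 called by DESeq2. With spike-in scaling all 3 differences turned negative, while the median over all genes was -0.86, against 0.02 with TMM. The stage effects themselves differed between crosses by 2.14 for Nanog (SE 0.37, unadjusted p = 3.25e-05, adjusted p = 0.12) and by 1.32 for Pou5f1 (SE 0.37, adjusted p = 0.211), where 0.00543% of genes were called.

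The test of that difference depended on the tool. DESeq2 put the Nanog difference at 2.12 (adjusted p = 5.8e-05) and limma voom at 2.21 (adjusted p = 0.00438), and the corresponding Pou5f1 values were 1.30 (adjusted p = 0.0448) and 1.44 (adjusted p = 0.0202). With edgeR the Nanog difference also passed on leaving out Alyref cross non-KO morula 3 or Gabpb1 cross non-KO morula 1, within a range of 1.75 to 2.69. Sox2 stage effects differed by 0.48 (SE 2.02, adjusted p = 0.949), a value that became -2.31 without Alyref cross non-KO morula 3, -1.39 with voom and -0.96 with the replicate block.

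Non-KO morulae of both crosses were also set against each other, and here Nanog was lower in the Gabpb1 cross. The log2 difference was -1.38 for Nanog (SE 0.28, adjusted p = 0.0334) and -0.54 for Pou5f1 (SE 0.27, adjusted p = 0.252), each without overlap. Among tested genes 18.3% failed to overlap in the lower direction, 0.668% were called lower and 1.85% were called in all. Sox2 differed by -0.99 (SE 1.54, adjusted p = 0.741), but by 1.80 without Alyref cross non-KO morula 3, 1.01 with voom and 0.05 with the replicate block. The Nanog call was lost on leaving out Alyref cross non-KO morula 1, morula 2 or Gabpb1 cross non-KO morula 2, with only the compared groups fitted (-1.36, adjusted p = 0.379) and with spike-in scaling (-0.99, adjusted p = 0.688). The Gabpb1 cross non-KO morulae had the higher trophectoderm sums, 3680 to 5800 CPM against 639 to 2720 CPM. Of the markers summed, Krt7, Krt8 and Krt18 were higher without overlap, as were 17.9% of tested genes. The factors Cdx2 (10.4 to 23.2 against 6.74 to 14.7 CPM), Gata3 (89.8 to 211 against 34.9 to 99.8 CPM) and Eomes (23.4 to 39.1 against 1.01 to 26.1 CPM) overlapped. The part of these markers in the Nanog difference was not tested.

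These comparisons share embryos: the Alyref cross non-KO morulae served as the reference for the KO effect, the stage effect and the contrast of crosses. The 6 blastocysts of the heterozygous crosses differed from WT blastocysts by 0.14 for Nanog (SE 0.21), 0.35 for Pou5f1 (SE 0.21) and -1.02 for Sox2 (SE 1.12), each with an adjusted p of 1. For Sox2 the 6 cross embryos, at 1.07 to 6.83 CPM, all lay below the 3 WT embryos, at 8.97 to 10.9 CPM, as was so for 1.9% of tested genes. In that comparison edgeR called 0% of genes, with 837 at an unadjusted p under 0.05 and 33 called by DESeq2.

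**Figure D3:**
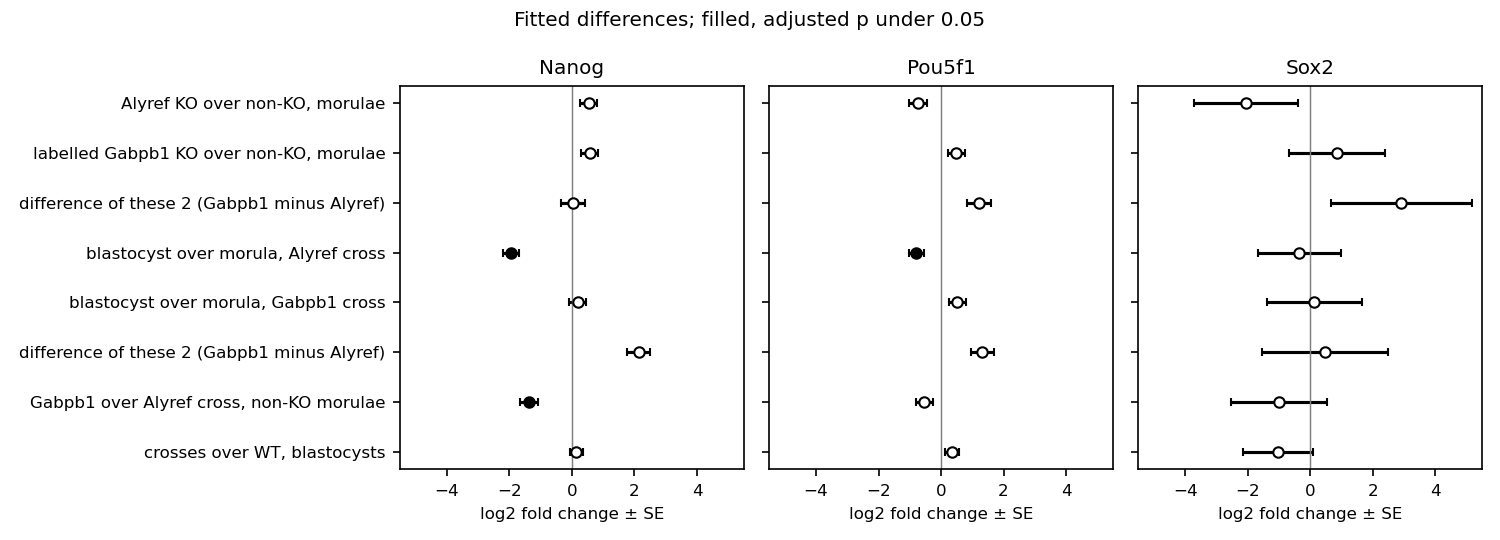
Fitted log2 fold change with SE (horizontal axes) of Nanog, Pou5f1 and Sox2 for the 8 comparisons (rows), from edgeR's quasi-likelihood fit to all 19 embryos. Filled points have an adjusted p under 0.05 and are Nanog and Pou5f1 for stage in the Alyref cross and Nanog between the crosses; the Sox2 bars are the widest in every row.

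Ratios within an embryo were taken from counts per kilobase of merged exons and do not depend on scaling between embryos. The Nanog/Pou5f1 ratio set the Alyref KO morulae apart. It was 6.40 and 8.33 in the KO morulae and 2.79, 2.99 and 3.21 in the cross's non-KO morulae, a gap larger than the spread within either group. Within the Gabpb1 cross it was 1.86, 1.66 and 1.74 in morulae labelled KO and 1.98 and 1.28 in non-KO morulae, so the labelled KO embryos lay inside the non-KO range. Blastocysts had 1.89, 1.13 and 1.14 in the Alyref cross, 1.17, 1.97 and 1.08 in the Gabpb1 cross and 2.16, 1.40 and 1.24 with WT parents. All 19 embryos had more counts per kilobase for Nanog than for Pou5f1, with a lowest ratio of 1.08. Reads of exon bases that Pou5f1 shares with Gm19553 cannot be assigned and may be missing from the Pou5f1 counts. The lowest ratios therefore do not settle which transcript was more abundant.

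The Alyref KO embryos had a 2.44-fold higher Nanog/Pou5f1 ratio, a log2 difference of 1.29 (exact two-sided permutation p = 0.1, the smallest that 10 splits of 5 embryos allow). Adjusted over the 15 ratio comparisons, p was 0.375. For morulae labelled Gabpb1 KO the log2 difference was 0.14 (exact permutation p = 0.8). The gap between these effects was -1.15 (exact permutation p = 0.11, adjusted over 3 such tests to 0.33), a comparison added after the values were seen. Averaged over the crosses, the log2 ratio was lower in blastocysts than in non-KO morulae by 0.69 (exact permutation p = 0.04, adjusted p = 0.375). The crosses were unlike: its mean went from 1.58 to 0.42 in the Alyref cross and from 0.67 to 0.44 in the Gabpb1 cross, where the ranges overlapped. The non-KO morulae of the Gabpb1 cross were lower than those of the Alyref cross by a log2 difference of -0.91 (exact permutation p = 0.1), without overlap. Against WT blastocysts the crosses differed by -0.20 (exact permutation p = 0.476).

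The Sox2/Pou5f1 ratio was lowest, and Nanog/Sox2 highest, in the 2 morulae without Sox2 counts, where 3 counts were used and the ratios are bounds. Sox2/Pou5f1 was at most 0.00291 in Alyref cross non-KO morula 2 and at most 0.00328 in labelled Gabpb1 KO morula 2. Among the other 17 embryos it ran from 0.0139 in Gabpb1 cross blastocyst 2 to 0.198 in Alyref cross non-KO morula 3. WT blastocysts had 0.176, 0.189 and 0.135, above 0.0868, 0.115 and 0.0941 in Alyref cross and 0.0683, 0.0139 and 0.0351 in Gabpb1 cross blastocysts. That separation, a log2 difference of -1.55, had an exact permutation p of 0.0595 and an adjusted p of 0.375. Nanog/Sox2 was at least 1030 and at least 506 in the 2 morulae without Sox2 counts and 7.40 to 346 elsewhere. The remaining comparisons of the ratios with Sox2 had exact permutation p-values of 0.143 to 0.8.

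**Figure D4:**
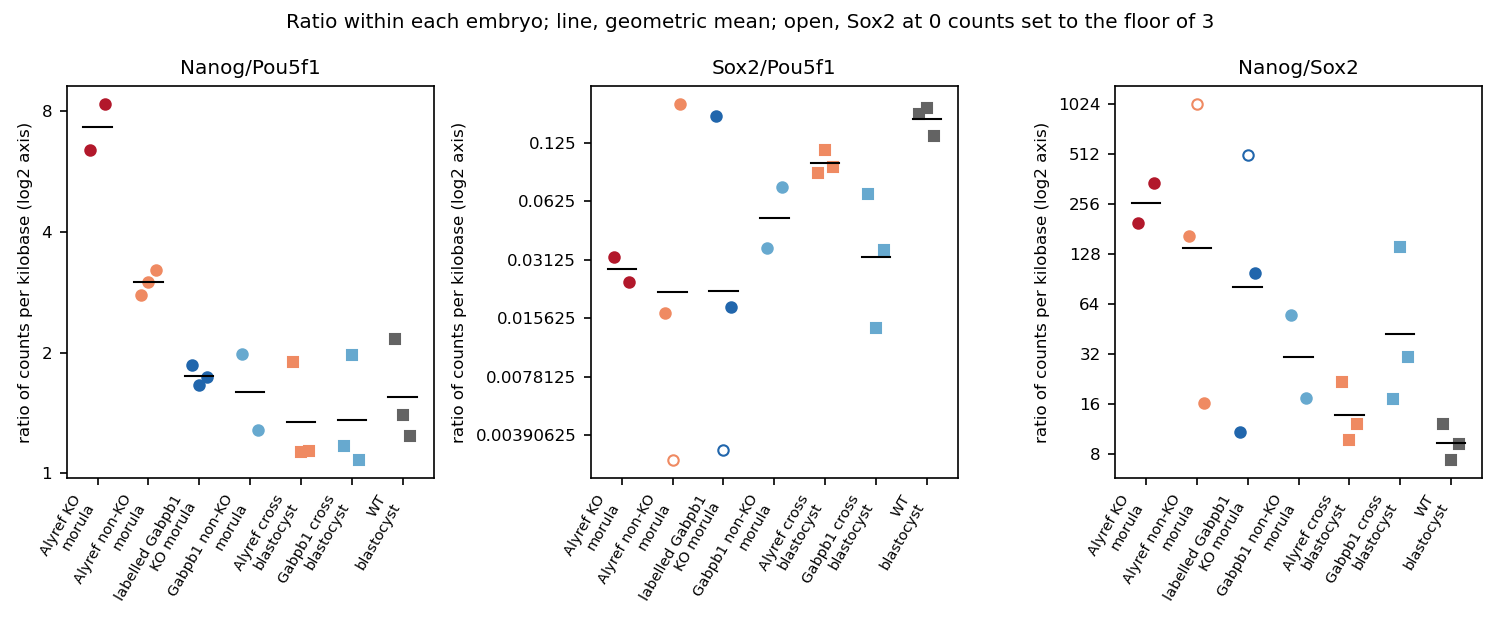
Ratios of counts per kilobase (vertical log2 axes) of Nanog/Pou5f1, Sox2/Pou5f1 and Nanog/Sox2 in the 7 groups, 1 point per embryo, with the geometric mean as a line and open points where Sox2 had 0 counts and was set to 3. The Alyref KO morulae, at 6.40 and 8.33, lie above all other embryos for Nanog/Pou5f1, and the WT blastocysts lie highest among blastocysts for Sox2/Pou5f1.

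With group means left in, no pair of the 3 genes was correlated across embryos of a stage beyond the threshold in 6 relations of log2(CPM + 1). For Nanog and Pou5f1 in 10 morulae, Pearson's r was 0.04 (permutation p = 0.911, adjusted p = 0.983) and Spearman's rho 0.03 (permutation p = 0.946, adjusted p = 0.946). Without the 2 embryos farthest from the Nanog median r was -0.21. After removal of each group's mean, r became 0.75 (permutation p = 0.00694, adjusted p = 0.0417). That p is the smallest that rearrangement within groups of 2 or 3 embryos allows. Within these groups, embryos with more Nanog also held more Pou5f1. In 9 blastocysts Nanog and Pou5f1 had r = 0.60 (exact permutation p = 0.0862, adjusted p = 0.259) and rho = 0.53 (exact permutation p = 0.148, adjusted p = 0.443), and r was 0.28 without the 2 farthest embryos and -0.10 after removal of group means.

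Nanog and Sox2 in blastocysts had r = -0.61 (exact permutation p = 0.0798, adjusted p = 0.259) and rho = -0.65 (exact permutation p = 0.0666, adjusted p = 0.399), and r was 0.01 without 2 of the Gabpb1 cross blastocysts. In morulae that pair had r = 0.01 (permutation p = 0.983, adjusted p = 0.983) and rho = -0.04 (permutation p = 0.912, adjusted p = 0.946). Sox2 and Pou5f1 had r = 0.29 (permutation p = 0.416, adjusted p = 0.78) and rho = 0.15 (permutation p = 0.688, adjusted p = 0.946) in morulae. In blastocysts they had r = -0.24 (exact permutation p = 0.52, adjusted p = 0.78) and rho = -0.32 (exact permutation p = 0.41, adjusted p = 0.82).

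Sox2 in morulae followed the log2 ratio of gene counts to ERCC counts, a relation examined after the values were seen. That ratio was 5.66 and 6.0 in the 2 morulae without Sox2 counts and 7.40 and 7.63 in the 2 morulae with the most Sox2. Over 10 morulae r was 0.87 (permutation p = 0.00256, adjusted p = 0.0154) and rho was 0.95 (permutation p = 0.00013, adjusted p = 0.00078), over 6 relations of 3 genes in 2 stages. Without the 2 morulae farthest from the median ratio, r was 0.82 (permutation p = 0.00714), and it was 0.93 after removal of group means. Of the 18410 tested genes, 103 (0.559%) had an r at or above that of Sox2, and the median over all was 0.05. Each cross holds 5 morulae, and no correlation was computed within a cross; the removal of group means also removes the difference between crosses.

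The relation did not pass the test for the other members or in blastocysts. In morulae r was 0.04 for Nanog (permutation p = 0.918, rho = 0.02, permutation p = 0.973) and 0.12 for Pou5f1 (permutation p = 0.75, rho = 0.20, permutation p = 0.582). After removal of group means, r in morulae was 0.58 for Nanog and 0.63 for Pou5f1, beside 0.93 for Sox2. A positive r within groups was thus not particular to Sox2, and these values were not tested. In blastocysts Sox2 had r = 0.12 (exact permutation p = 0.763) and rho = 0.28 (exact permutation p = 0.463). With group means removed, r in blastocysts was -0.52 for Nanog, -0.55 for Pou5f1 and 0.2 for Sox2. Whether the spike-in ratio reflects cell number, RNA per cell or handling was not tested. The 2 libraries without Sox2 counts held 13.6 and 11.3 megacounts of genes, within the range of the other morulae, and 24541 and 23167 detected genes against 24120 to 26194 in the other 8.

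**Figure D5:**
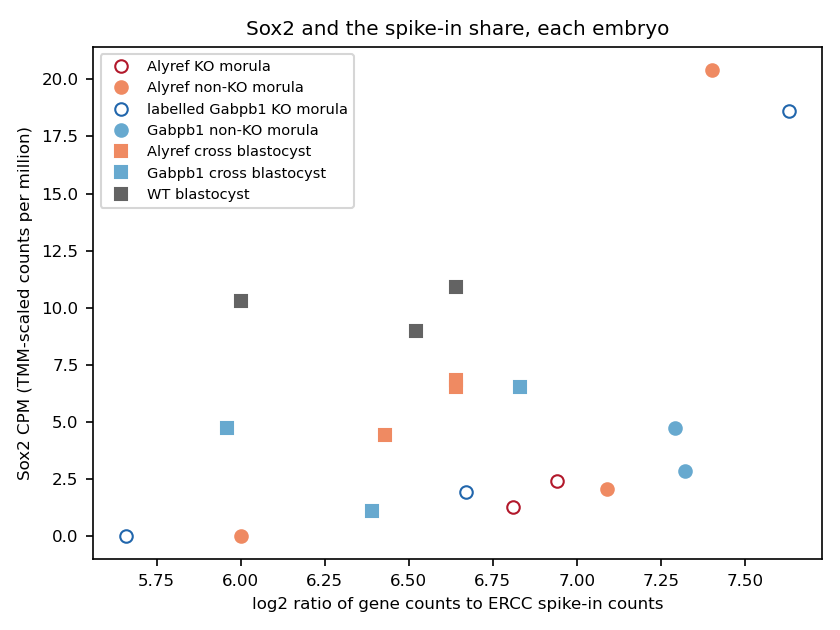
Sox2 CPM (vertical axis) against the log2 ratio of gene counts to ERCC spike-in counts (horizontal axis), 1 point per embryo, open circles for labelled KO morulae, filled circles for other morulae and squares for blastocysts. Among circles Sox2 goes from 0 CPM at ratios of 5.66 and 6.0 to 18.6 and 20.4 CPM at 7.63 and 7.40; the squares show no such order.

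The genes most like each member over the 19 embryos were ranked by Pearson's r of log2(CPM + 1) among 9346 tested genes with a mean of at least 10 CPM. For Nanog they were Ccdc86 (r = 0.903), Stk35 (0.855) and Psmd7, a proteasome subunit (0.853). For Pou5f1 they were the overlapping Gm19553 (r = 0.992), Exo5 (0.825) and Mkrn1-ps1 (0.82). For Sox2 they were Mtdh (r = 0.9), Trak1 (0.863) and Dido1 (0.857). These values describe embryos that share groups and stages. The members were less alike among themselves, at 0.372 for Nanog with Pou5f1, -0.319 for Nanog with Sox2 and -0.029 for Pou5f1 with Sox2.

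Of 16 factors that work with the members in the pluripotency network, all 16 were tested and 4 were called in the Alyref cross between morula and blastocyst, 3 of them lower, where 13.0% of all genes were called and 7.43% were called lower. Zfp281, a zinc finger factor, fell by 1.64 (SE 0.39, adjusted p = 0.0175), from 68.6 ± 29.8 to 22.0 ± 2.14 CPM (SD, n = 3 each). Tfap2c fell by 1.19 (SE 0.29, adjusted p = 0.0184) and Klf2 by 1.89 (SE 0.49, adjusted p = 0.0248). Stat3, the mediator of LIF signalling, rose by 1.80 (SE 0.52, adjusted p = 0.035), where 5.62% of all genes were called higher. The median of the 16 was -0.50, beside -0.04 over all genes tested. None of the 16 was called in either KO comparison, where the medians were -0.06 (Alyref) and 0.52 (labelled Gabpb1), beside -0.04 and 0.06 over all genes. The 2 most abundant, Klf5 and Tfcp2l1, stood at 146 ± 10.9 and 327 ± 35.8 CPM with Alyref KO (SD, n = 2) and at 213 ± 48.7 and 340 ± 105 CPM in the cross's other morulae (SD, n = 3).

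Of 16 known targets of the members, all tested, 2 fell in Alyref KO morulae. The list was chosen with earlier results of these data known, so its counts and medians are descriptive and not independent support. Gdf3, a TGF-beta family ligand, stood at 5.30 ± 0.712 CPM with KO (SD, n = 2) against 67.4 ± 40.6 CPM without (SD, n = 3). It fell by 3.67 on the log2 scale (SE 0.65, adjusted p = 0.037), in a comparison where 0.136% of genes were called lower. L1td1, an RNA-binding protein gene, stood at 7.79 ± 2.24 CPM with KO (SD, n = 2) against 55.2 ± 24.2 CPM without (SD, n = 3), and fell by 2.84 (SE 0.51, adjusted p = 0.037). In that comparison 15 of the 16 had a negative fold change, and their median was -0.89, or -0.88 with the genes at the count floor set to their bounds, beside -0.04 over all genes. Of all genes tested, 46.5% had a positive fold change there. No target was called in morulae labelled Gabpb1 KO, with a median of 0.38, or 0.22 with bounds, beside 0.06 over all genes. The effects on Gdf3 differed between crosses by 4.06 (SE 0.84, adjusted p = 0.0349). The most abundant targets, Fbxo15 and Dppa5a, stood at 2940 ± 939 and 1180 ± 212 CPM with Alyref KO (SD, n = 2) and at 2990 ± 2190 and 2170 ± 317 CPM without (SD, n = 3).

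Between stages in the Alyref cross 4 of the 16 targets fell, as did Nanog, where 7.43% of all genes were called lower. Dppa2 fell by 1.71 (SE 0.35, adjusted p = 0.0108), from 1170 ± 752 to 358 ± 71.8 CPM (SD, n = 3 each). Fbxo15 fell by 2.14 (SE 0.53, adjusted p = 0.0201), Rif1 by 0.88 (SE 0.23, adjusted p = 0.0246) and Dppa4 by 1.22 (SE 0.32, adjusted p = 0.0266). The targets as a list were split evenly in sign, 8 higher and 8 lower, with a median of -0.06.

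Of 10 factors listed as opposing the network, all but Tcf7l1 from trophectoderm or primitive endoderm, none was called in any of the 8 comparisons. In the Alyref cross 9 of 10 had a higher fitted level in blastocysts, with a median of 1.53, and in the Gabpb1 cross 10 of 10, with a median of 0.91, beside -0.04 and 0.02 over all genes. Of all genes tested, 47.8% and 51.6% were higher in blastocysts of these crosses. Gata3, a trophectoderm factor, stood at 72.8 ± 33.8 CPM in Alyref cross non-KO morulae and 261 ± 39.3 CPM in blastocysts (SD, n = 3 each; adjusted p = 0.0574). Gata6, the primitive endoderm factor that opposes Nanog, stood at 125 ± 4.32 and 91.4 ± 4.87 CPM in the same groups (SD, n = 3 each; adjusted p = 0.21). In morulae labelled Gabpb1 KO 8 of the 10 had a negative fold change, with a median of -1.20. Over all genes the median there was 0.06, and 52.9% had a positive fold change.

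Of 18 other POU and SOX family genes, 8 were tested, and 3 of these fell between stages in the Alyref cross, where 7.43% of all genes were called lower. Sox15, a SOX gene that was more abundant than Sox2 in the embryos, fell by 2.45 (SE 0.57, adjusted p = 0.0165), from 123 ± 113 to 22.6 ± 3.74 CPM (SD, n = 3 each). Pou6f1 fell by 2.25 (SE 0.53, adjusted p = 0.0172), from 14.2 ± 5.17 to 3.02 ± 1.01 CPM (SD, n = 3 each). Sox9 (adjusted p = 0.0202) had 3, 11 and 318 counts in the 3 morulae and 0 counts in all 3 blastocysts. Its mean level was at least 32.4-fold higher in the morulae, against a floor of 3 counts per blastocyst, and at least 2.97-fold without the highest morula. Pou2f1, a POU gene expressed in many tissues, stood at 14.1 ± 9.07 and 18.2 ± 0.193 CPM in the same groups (SD, n = 3 each). No tested gene of the family was called in either KO comparison.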

How the data were processed

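The authors deposited 1 table of whole-number counts per gene, with a column per embryo and the merged exon length, under a name that announces FPKM; column totals differ between embryos, so the values were treated as counts. The submitters' processing notes name Trimmomatic, Trim Galore, cutadapt, STAR, featureCounts and mm10. The annotation and strand setting are not given in the sources used here. Of 53379 gene identifiers, 50604 are in GENCODE M21, with the same coordinates. FPKM computed from the counts served as a filter (1 or more in at least 2 of 19 embryos), which kept 18410 of the 39262 genes that had a count.

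Under R 4.3.3, edgeR 4.0.16 with TMM scaling and the quasi-likelihood F test was fitted to 7 group means over all embryos. 8 contrasts were tested, with Benjamini-Hochberg adjustment over all genes and a threshold of 0.05. Standard errors are the log2 fold change over the square root of F. Ratios and correlations used exact or 100000-resample permutation tests (SciPy 1.17.1), two-sided. The table was planned for as FPKM with limma, or as counts with edgeR. Replicates are single embryos that may share parents, so p-values measure the spread between these embryos. On simulated data for the stage contrast of the Alyref cross, with 18410 genes, 13.4% of log2 changes of 1, 74.6% of 2 and 97% of 3 were recovered, with 2 wrong calls. The changes were put into genes above a minimum count, with the spread set to the trend. These rates therefore do not apply to Sox2, whose spread was 2.32 times its trend. Libraries were amplified by PCR and carry no molecular identifiers, so floors cover counting error only.

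Named genes are the 3 members, genes of the lists of partners, targets, opposing factors and family called in a contrast (up to 5 a list, by adjusted p), the 2 of each list with the highest mean CPM, the 3 genes most like each member, and overlapping genes. Members and lists were chosen with earlier results of these data known. Alternatives were DESeq2 1.42.0, limma voom (limma 3.58.1), spike-in scaling, no filter, a fit of the compared groups alone, the replicate number as a block and leaving out each embryo. For the ratios they were group medians, summed counts, stage without strata and, added after seeing the data, other treatments of 0 counts and a block by replicate number.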

Additional observations from a re-analysis of the deposited data

How the results depend on the processing

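Over 144 refits of the member fold changes, 118 kept direction and side of the threshold, as did 143 of 168 with 1 embryo left out. With spike-in scaling the median of all genes moved to -0.40 and -0.33 for the labelled Gabpb1 KO effect and the difference of KO effects, to -0.34, -0.86 and -0.53 for stage in the Alyref cross, the Gabpb1 cross and their difference, and to 0.39 between crosses. Under it Nanog became -0.25 for the difference of KO effects, -0.74 for stage in the Gabpb1 cross and -0.99 between crosses; Pou5f1 became -1.13 and -0.42 for stage in the Alyref and Gabpb1 crosses, and Sox2 -0.66 for stage in the Gabpb1 cross. Without the filter Nanog was -0.03 for the difference of KO effects and Pou5f1 -0.73 for stage in the Alyref cross. With only the compared groups fitted these were -0.0043 and -0.76, and Nanog was -1.36 between crosses. DESeq2 gave 2.12 (Nanog) and 1.30 (Pou5f1) for the difference of stage effects, and limma voom 2.21 and 1.44. Voom also gave 1.44 for Pou5f1 in the difference of KO effects, and for Sox2 -1.67 (labelled Gabpb1 KO), -1.55 (difference of KO effects), 1.66 (stage, Alyref cross), -1.39 (difference of stage effects) and 1.01 (between crosses). The replicate numbers did not pair embryos, since deviations of same-numbered embryos correlated at -0.128 to 0.148. With the number as a replicate block Nanog was -0.03 for the difference of KO effects, and Sox2 was 0.34, -0.61 and -0.96 for stage in the Alyref cross, in the Gabpb1 cross and their difference and 0.05 between crosses. The block changed no call of a member. For the ratios, labels permuted within replicate numbers as a replicate block, added after seeing the data, turned log2 Nanog/Sox2 for the Alyref KO effect to -0.66 and kept the sign of the other 14 differences, with exact permutation p-values of 0.111 to 1. Genes called by edgeR, DESeq2, the block and spike-in scaling numbered 42, 502, 8 and 0 for the Alyref KO effect, 303, 1284, 266 and 26 for the labelled Gabpb1 KO effect and 167, 894, 117 and 10 for their difference. They numbered 2402, 3762, 2014 and 352 for stage in the Alyref cross, 0, 57, 0 and 0 in the Gabpb1 cross, 1, 336, 0 and 1 for their difference, 341, 1709, 327 and 2 between crosses and 0, 33, 0 and 0 against WT.

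Leaving out each embryo gave -0.96 to -0.64 for Pou5f1 and -0.91 to 2.44 for Sox2 in the stage effect of the Alyref cross. In the Gabpb1 cross it gave -0.20 to 0.74 for Nanog and -0.35 to 0.57 for Sox2, and for the difference 1.75 to 2.69 and -2.31 to 1.04. Between crosses it gave -1.93 to -0.99 for Nanog and -1.57 to 1.80 for Sox2. For Nanog the difference of KO effects ran from -0.37 to 0.57, and for Sox2 from 0.14 to 3.51. Sox2 ran from -2.67 to 0.72 for the Alyref KO and from -1.92 to 1.42 for the labelled Gabpb1 KO effect. The log2 Nanog/Pou5f1 ratio ran from -0.18 to 0.45 for the labelled Gabpb1 KO effect and from -0.36 to 0.03 against WT. Log2 Sox2/Pou5f1 ran from -1.04 to 2.0 for the Alyref KO, from -2.75 to 0.10 for the labelled Gabpb1 KO effect and from -0.16 to 2.88 between crosses, and log2 Nanog/Sox2 from -0.66 to 2.33 for the Alyref KO effect. With counts summed over a group, log2 Sox2/Pou5f1 was -1.39, 0.34 and -0.47 in those 3 comparisons, and -1.04, 0.10 and -0.16 without the embryos at 0 Sox2 counts; log2 Nanog/Sox2 for the labelled Gabpb1 KO effect was -0.27 with summed counts. Of the correlations, Nanog with Pou5f1 was -0.21 in morulae without the 2 farthest embryos, 0.75 there after removal of group means and -0.10 in blastocysts after that. Sox2 with Pou5f1 was -0.14 in morulae without 2 embryos, 0.87 with spike-in scaling, which puts the spike-in ratio into both genes, and 0.58 in blastocysts after removal of group means. Nanog with Sox2 was 0.01 in blastocysts without 2 embryos. The cause of these changes was not tested, and with 2 or 3 embryos a group and 0 to 315 Sox2 counts, Sox2 differences of the size fitted here did not pass the test.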
